A study of Arabidopsis thaliana with 6 samples.

Results

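CCOAMT (AT1G67980) and UGT72E1 (AT3G50740) are genes of Arabidopsis thaliana annotated to lignin precursor metabolism. They stood far apart in roots given gold and roots given none, in opposite directions. They were chosen by that measured difference, the change of each on the gold arrays against the no gold arrays, out of 13355 named genes, through the table that assigns probe sets of the ATH1 expression array to genes. That table gives 1 probe set to each, so 2 of the 22746 probe sets tested are described. Because the difference itself picked the genes, it is given below as a description and carries no test.

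Roots of Col 0 plants grown for 14 days in hydroponic jars were profiled on 6 arrays, 1 per jar. In the gold group, 3 jars, the medium was exchanged for water at pH 5.7 that held KAuCl4, a soluble gold(III) salt, at 0.125 mM. In the no gold group, 3 jars, the plants are called untreated in the sample labels and are said to have had water in the design text, so whether they also lost their growth medium is not settled here. The labels give 24 h of exposure and the treatment protocol 6 h.

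Lignin is a polymer of phenylpropanoid alcohols, the monolignols, that stiffens and seals the walls of xylem, endodermis and wounded or attacked tissue. Its precursors are made from phenylalanine by ring hydroxylation, O-methylation of the ring by enzymes such as caffeoyl-CoA O-methyltransferase, and reduction of the CoA ester to an aldehyde and then an alcohol. Monolignols and their aldehydes can also be joined to glucose, which makes them soluble and keeps them from polymerising, and beta-glucosidases can release them again. Laccases and class III peroxidases oxidise monolignols in the wall, after which they couple into lignin.

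CCOAMT is annotated as a caffeoyl-CoA 3-O-methyltransferase and belongs to the small family around CCoAOMT1, the main enzyme of that step in lignin synthesis. UGT72E1 transfers glucose to coniferyl aldehyde and sinapyl aldehyde, and its close relatives UGT72E2 and UGT72E3 also act on the corresponding alcohols. By its annotation CCOAMT is placed on a methylation step, and UGT72E1 acts on a side branch of the same pathway. Whether CCOAMT acts in lignin synthesis was not tested here. The 2 genes lie on different chromosomes by locus code.

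The deposited values are log2 values in which each probe set had been centred on its median over the 6 arrays, with base 2 assumed, since no base is stated. Every fold given here rests on that assumption. Centring keeps differences between arrays and removes levels, so levels of different genes could not be compared, and the root identity of the samples could not be checked through marker levels. For a probe set whose groups do not overlap, it also places the lowest value of the higher group and the highest value of the lower group at equal distances from 0.

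CCOAMT stood at -3.37, -2.96 and -2.18 on the centred log2 scale in no gold replicates 1, 2 and 3. In gold replicates 1, 2 and 3 it stood at 2.18, 3.28 and 3.08. All 3 gold arrays lay above all 3 no gold arrays, with a gap of 4.36 between the nearest values of the groups. The group means were 2.85 ± 0.586 with gold and -2.83 ± 0.603 without (SD, n = 3 each), so the spread among jars was alike in both groups. The difference was 5.68 ± 0.375 on the log2 scale (SE of the limma fit, n = 3 and 3), or 51.2-fold. It was the 31st value among rises of all probe sets and the 11th among named genes.

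UGT72E1 stood at 1.71, 2.87 and 2.34 in no gold replicates 1, 2 and 3 on the same scale. In gold replicates 1, 2 and 3 it stood at -1.71, -2.11 and -2.02. Every gold array lay below every no gold array, with a gap of 3.42 between the groups. The group means were -1.95 ± 0.213 with gold and 2.31 ± 0.583 without (SD, n = 3 each). The gold arrays thus kept within 0.406 of each other, while the no gold arrays spanned 1.16. The difference was -4.26 ± 0.291 on the log2 scale (SE, n = 3 and 3), a level 19.1-fold lower with gold, the 24th among falls of all probe sets and the 10th among named genes. In whole roots, fewer cells that express a gene and less of its RNA per cell cannot be told apart.

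**Figure D1:**
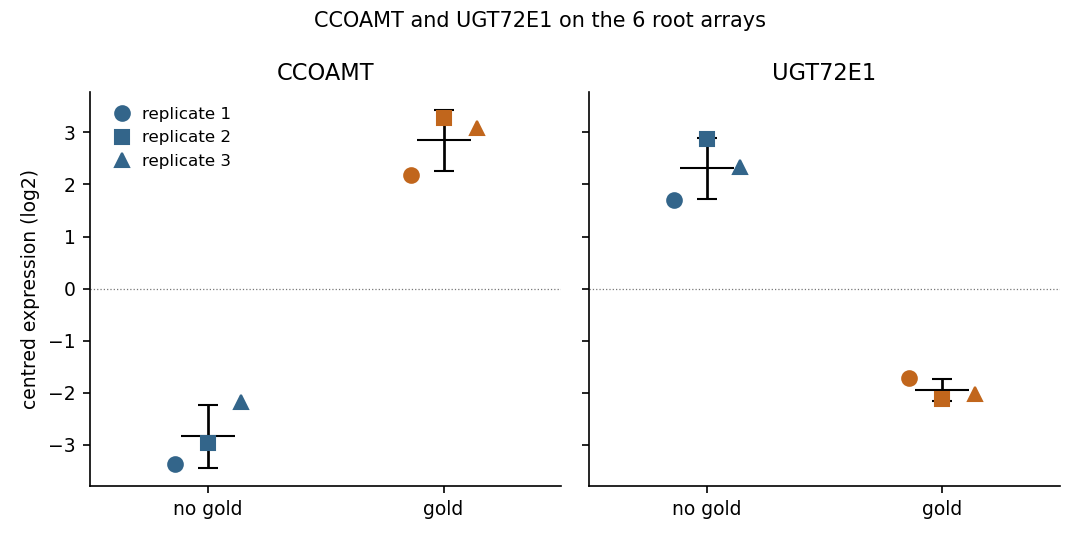
Centred log2 expression of CCOAMT (left) and UGT72E1 (right) on the 3 no gold and 3 gold arrays, with the group mean and SD as bars and the replicate number as the symbol. The gold values of CCOAMT, from 2.18 to 3.28, lie above all its no gold values, and those of UGT72E1, from -2.11 to -1.71, lie below all its no gold values.

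Gold replicate 1 was the gold array nearest to the no gold arrays for both genes. Measured against the no gold mean, it was higher by 5.01 for CCOAMT, where gold replicates 2 and 3 were higher by 6.11 and 5.92. For UGT72E1 the same distances were -4.02 in gold replicate 1 and -4.42 and -4.33 in the other two. This order was common on these arrays: gold replicate 1 was the gold array nearest to the no gold group in 71.3% of the 4601 probe sets that changed. Among the no gold arrays, replicate 1 was the farthest from gold for CCOAMT and the nearest to gold for UGT72E1.

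Array quality bears on no gold replicate 1. For the actin control, the centred value of its 5' probe set less that of its 3' probe set came to -4.89 there and to between -1.02 and 0.38 on the remaining arrays. The corresponding difference for GAPDH was -2.55 there and from -0.21 to 0.03 elsewhere. Without that array the change of CCOAMT was 5.41 ± 0.379 and that of UGT72E1 was -4.55 ± 0.215 on the log2 scale (SE). Both genes thus kept a difference of similar size without it, smaller for CCOAMT and larger for UGT72E1. With quantile normalization of the arrays the changes were 5.02 and -5.05, which moves both folds by more than 1.5 times.

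Over all probe sets, 4601 of 22746 (20.2%) had a limma adjusted p below 0.05 for gold against no gold, 2121 (9.32%) higher and 2480 (10.9%) lower, and the median change was -0.04 on the log2 scale. Values of the groups did not overlap in 37.2% of all probe sets. Of 137 genes in 15 lists that follow the pathway from phenylalanine supply to lignin and its side branches, 34 had a probe set named for that gene alone. Of the 32 that remain without CCOAMT and UGT72E1, 10 were called higher, 5 lower and 17 neither, so 46.9% were called, against the 20.2% given above. The lists were chosen with earlier results of these data known, so the excess over that share is a description. The groups did not overlap in 17 of the 32, and the median change was 0.05 on the log2 scale. Without gold replicate 3 the counts were 6 higher and 3 lower, where all probe sets gave 1262 and 1258. Without no gold replicate 2 or no gold replicate 3 the lower count was 3, where all probe sets gave 1565 and 1725 lower. Without no gold replicate 1 the counts were 10 and 4, where all probe sets gave 2151 and 2717.

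Much of the central pathway was not covered. The lists for entry to phenylpropanoids (PAL, C4H and 4CL genes), for lignans and dirigents, for regulators of lignin genes and for the methyl donor cycle had no member with a probe set named for it alone. They are not analysed here, and neither is CCoAOMT1.

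Both measured genes of phenylalanine supply, of 17 listed, rose, where 9.32% of all probe sets were called higher. AT1G22410, which encodes a DAHP synthase, the first enzyme of the shikimate pathway, rose by 1.28 ± 0.233 (log2, with the SE of the fit over 3 and 3 arrays as for all changes here; limma adjusted p = 0.00712). AT5G66120, a 3-dehydroquinate synthase, rose by 0.98 ± 0.229 (limma adjusted p = 0.0203). A probe set shared by the EPSP synthase genes AT1G48860 and AT2G45300 also rose, by 0.84 ± 0.149 (limma adjusted p = 0.00642), and its signal cannot be divided between them.

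Of the ring hydroxylation list, HCT rose and CYP84A4 did not pass. HCT, the acyltransferase that makes the shikimate ester on which ring hydroxylation takes place, rose by 1.40 ± 0.324 (limma adjusted p = 0.0199). Its no gold values were -1.47, -0.31 and -0.49 in replicates 1, 2 and 3, and its gold values 0.31, 0.62 and 0.98, with no overlap. CYP84A4, a relative of ferulate 5-hydroxylase, stood at a change of 0.46 ± 0.374.

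Neither measured relative of CCOAMT in the caffeoyl-CoA methyltransferase family passed as higher, where 9.32% of all probe sets did. With 2 relatives measured, this is near that share and too little to read as a result. AT3G62000 stood at a change of -0.02 ± 0.17 on the log2 scale, with a 95% interval from -0.42 to 0.38. AT1G24735 fell by 0.66 ± 0.188 (limma adjusted p = 0.0447), with no gold values of 0.10, 0.54 and 0.53 and gold values of -0.10, -0.46 and -0.24 in replicates 1, 2 and 3. TSM1 (AT1G67990), the family member next to CCOAMT on the chromosome, had no probe set named for it and is not analysed here. Cross-hybridisation of TSM1 RNA to the single probe set of CCOAMT was not tested.

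Among reductases and dehydrogenases, CCR2 rose and ALDH2C4 did not pass. CCR2 is a cinnamoyl-CoA reductase known for its induction by pathogens, in contrast to CCR1 of developmental lignin, which is not analysed here. It stood at -1.71, -1.94 and -1.56 in no gold replicates 1, 2 and 3 and at 1.56, 3.61 and 2.55 in the gold replicates, so that all gold values were higher. The rise was 4.31 ± 0.454 on the log2 scale, 19.8-fold (limma adjusted p = 0.000562), and 3.62 with quantile normalization. ALDH2C4, the aldehyde dehydrogenase that turns coniferyl and sinapyl aldehydes into ferulate and sinapate, stood at -0.13 ± 0.167.

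UGT72E1 had 6 measured relatives in the UGT72 family, of which 1 rose, 1 fell and 4 did not pass, where 9.32% of all probe sets were called higher and 10.9% lower. UGT72E2, the enzyme mainly responsible for monolignol glucosides in light-grown roots, stood at -0.54, 0.47 and 0.33 in no gold replicates 1, 2 and 3 and at 0.02, -0.65 and -0.02 in the gold replicates. Its change was -0.30 ± 0.308 on the log2 scale, with a 95% interval from -1.02 to 0.41. UGT72E3 stood at 0.02 ± 0.174 (95% interval from -0.38 to 0.42). Both UGT72E2 and UGT72E3 had overlapping groups, where 37.2% of all probe sets had no overlap. The selection of UGT72E1 favoured groups without overlap, so this does not set it apart from them. For UGT72E2 the overlap came from no gold replicate 1 alone. Without that array its change was -0.62 ± 0.233 (limma adjusted p = 0.111).

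Of the other UGT72 genes, GT72B1, which encodes UGT72B1, a glucosyltransferase of monolignols and of chlorinated phenols, rose by 1.33 ± 0.321 (limma adjusted p = 0.0234). UGT72B3 fell by 0.93 ± 0.141 (limma adjusted p = 0.00304), with no gold values from 0.41 to 0.56 and gold values from -0.48 to -0.41. AT1G01390 (UGT72B2) at -0.17 and AT4G36770 (UGT72C1) at 0.07 did not pass. A probe set shared by AT2G18570 and AT2G18560, the UGT72D genes, fell by 1.11 ± 0.293 (limma adjusted p = 0.0335) and cannot be assigned to either.

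The UGT84A enzymes join glucose to the acid group of sinapate and related hydroxycinnamates. UGT84A4 fell by 0.73 ± 0.21 (limma adjusted p = 0.0465), while UGT84A1 at -0.62 ± 0.218 (limma adjusted p = 0.0876) and UGT84A3 at 0.04 ± 0.165 did not pass. The call of UGT84A4 was lost without any 1 array except gold replicate 2, with limma adjusted p reaching 0.162.

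The beta-glucosidases that release monolignols from their glucosides included large rises. BGLU45 stood at -2.05, -2.34 and -2.11 in no gold replicates 1, 2 and 3 and at 2.05, 4.30 and 3.20 in the gold replicates. It rose by 5.35 ± 0.49 on the log2 scale, 40.9-fold (limma adjusted p = 0.000299), and 4.53 with quantile normalization. BGLU46, next to BGLU45 by locus code, stood between -1.78 and -1.58 without gold and between 1.58 and 2.25 with gold, a rise of 3.62 ± 0.201 (limma adjusted p = 3.98e-05). Both had gold values well clear of the no gold ones. BGLU47, the third listed enzyme, stood at -0.41 ± 0.185 (limma adjusted p = 0.178). Cross-hybridisation between BGLU45 and BGLU46 was not tested.

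Of the 6 measured genes for enzymes that oxidise monolignols in the wall, 1 laccase and 5 peroxidases, 3 rose, where 9.32% of all probe sets were called higher. The laccase gene LAC16 rose by 1.71 ± 0.359 (limma adjusted p = 0.013) as the sole measured laccase of 17. The class III peroxidase PRX52 stood between -2.11 and -1.64 without gold and between 1.64 and 2.34 with gold, a rise of 3.74 ± 0.233 (limma adjusted p = 5.92e-05). AT5G66390 (PRX72), linked to stem lignin, rose by 1.24 ± 0.183 (limma adjusted p = 0.00278). The peroxidases AT2G22420, AT5G64120 and AT2G41480 did not pass, with changes of 0.67, -0.29 and -0.32.

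The 4 measured genes of the coumarin branch, of which 2 fell, and the 2 of the flavonoid branch included no called rise. Of all probe sets, 9.32% were called higher, 10.9% lower and 20.2% either way. Among so few genes, no rise is near that share. In the coumarin branch AT3G12900 (scopoletin 8-hydroxylase) fell by 5.21 ± 0.605 (limma adjusted p = 0.000863) and BGLU42 fell by 1.87 ± 0.329 (limma adjusted p = 0.0062), while AT1G28680 (0.86 ± 0.263, limma adjusted p = 0.0559) and AT3G13610 (0.55 ± 0.369) did not pass. The change of AT3G12900 was -5.93 with quantile normalization, -5.81 without no gold replicate 1 and -4.45 without no gold replicate 2. In the flavonoid branch, BAN stood at 0.23 and DFR at -0.10. Of these 2 measured genes, 0 passed with limma, 0 at an unadjusted limma p below 0.05 and 0 with the ordinary test. Of all 22746 probe sets, 7236 had an unadjusted limma p below 0.05 and 1937 passed the ordinary test. The 2 genes are too few to read these counts as a result.

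Single arrays decided several of the smaller calls. The limma adjusted p reached 0.0901 for HCT (lost without gold replicate 2 or 3), 0.0954 for AT5G66120 (without gold replicate 2 or 3 or no gold replicate 3), 0.0585 for LAC16 (without gold replicate 3), 0.0968 for GT72B1 (without no gold replicate 1 or 2 or gold replicate 2 or 3) and 0.154 for AT1G24735 (without no gold replicate 2 or 3 or gold replicate 2 or 3). The ordinary test, which takes each probe set's own variance with no pooling, ended these 5 calls and those of AT1G22410, UGT84A4 and BGLU42, whereas CCR2, BGLU45, BGLU46, PRX52 and AT3G12900 were called in all 11 settings tried.

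**Figure D2:**
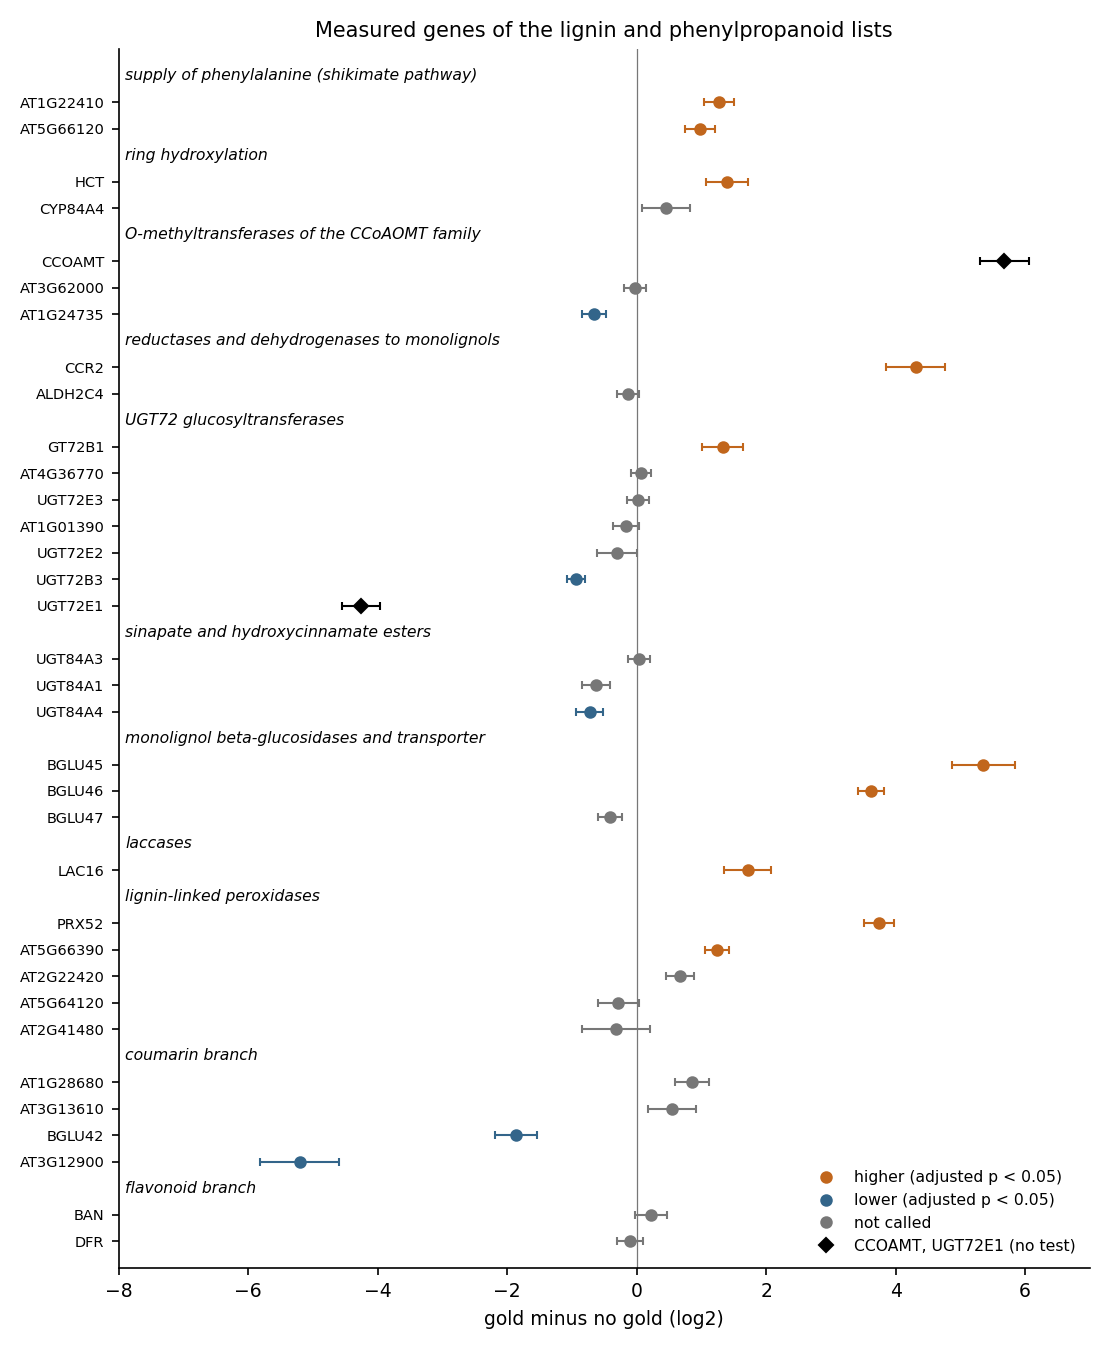
Change with gold (gold minus no gold, log2, with the SE of the limma fit) of the 34 measured genes in 11 of the lists, in pathway order, coloured by call at a limma adjusted p of 0.05. CCOAMT at 5.68 and UGT72E1 at -4.26 are the black diamonds, with BGLU45, CCR2, PRX52 and BGLU46 on the side of CCOAMT and AT3G12900 on that of UGT72E1.

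UGT72E1 stood at the lower end of the genes with a UGT symbol. UGT enzymes transfer a sugar from a nucleotide donor to small molecules such as hormones, phenolics and foreign compounds. The 47 genes with a UGT symbol and a named probe set leave out GT72B1, AT1G01390 and AT4G36770 of the UGT72 family, named otherwise. Of these 47, UGT72E1 had the lowest change, a place its selection favours. Among the other 46, 11 rose, 4 fell and 31 did not pass, with a median change of 0.08 on the log2 scale. The share called was 32.6%, against the 20.2% of all probe sets, and the groups did not overlap in 21 of the 46, where 37.2% of all probe sets had no overlap.

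The next lowest after UGT72E1 was UGT71C1, a glucosyltransferase of phenolics. It stood at 0.65, 2.04 and 2.11 in no gold replicates 1, 2 and 3 and at -0.65, -1.04 and -0.80 in the gold replicates, a fall of 2.43 ± 0.377 (limma adjusted p = 0.00346). The other falls, those of UGT72B3, UGT78D2 (-0.76 ± 0.173, limma adjusted p = 0.0186), a flavonoid 3-O-glucosyltransferase, and UGT84A4, were each smaller than 1 on the log2 scale. The largest rises were those of UGT73B4 (6.06 ± 0.331), UGT73B5 (4.12 ± 0.415), UGT73C7 (3.93 ± 0.348) and UGT87A2 (3.79 ± 0.307), with limma adjusted p between 3.87e-05 and 0.000453. With quantile normalization these 4 rises were 5.26, 3.45, 3.31 and 3.21.

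Without gold replicate 3 the counts of the family were 7 higher and 2 lower, and without no gold replicate 2 they were again 7 and 2. Without no gold replicate 3 there were 2 lower. Calls over all probe sets also fell there from 2121 higher and 2480 lower. They were 1262 and 1258 without gold replicate 3 and 1452 and 1565 without no gold replicate 2, with 1725 lower without no gold replicate 3. UGT78D2 lost its call in 4 of these fits without 1 array (no gold replicate 2 or 3, gold replicate 2 or 3; highest limma adjusted p = 0.0927), and UGT71C1 lost it with the ordinary test (adjusted p = 0.0669).

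**Figure D3:**
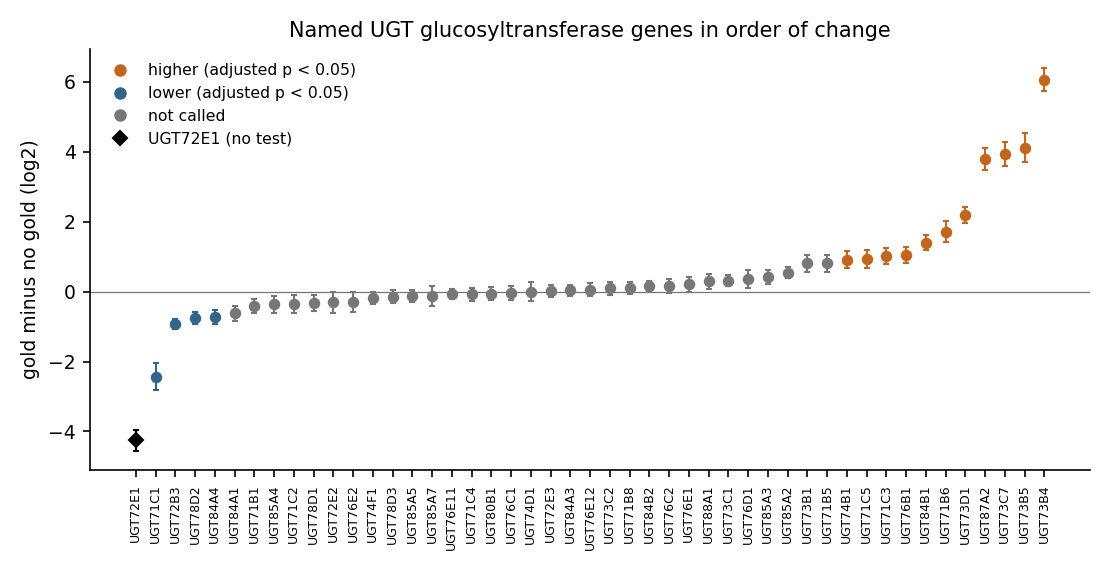
Change with gold (gold minus no gold, log2, with the SE of the limma fit) of the 47 genes with a UGT symbol, ordered from the lowest to the highest and coloured by call at a limma adjusted p of 0.05. UGT72E1 at -4.26 lies below UGT71C1 at -2.43, and most genes lie near 0.

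The genes whose 6 array values ran most like those of CCOAMT, by the Euclidean distance between rows centred on their means, were AT3G54150, UGT73B4, AT2G29500, AT1G22890 and BGLU45. Their distances were 0.827, 1.08, 1.08, 1.20 and 1.29 on the log2 scale, and their changes with gold lay near that of CCOAMT, for instance 5.80 for AT3G54150 and 5.61 for AT2G29500 (5.12 and 4.99 with quantile normalization). AT3G54150 is a methyltransferase gene and AT2G29500 a small heat shock protein gene. In no gold replicate 1, CCOAMT at -3.37 lay below all 5 of them, the nearest being AT3G54150 at -3.27. These are distances from each gene's own median, not levels, on the array whose actin and GAPDH controls stood apart.

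The genes nearest to UGT72E1 were AT3G18450, AT5G19970, AT4G25790, AT2G19970 and AT3G58060. AT3G18450, a PLAC8 family gene, was the nearest of them at a distance of 0.143, and its values of 1.72, 2.98, 2.37, -1.72, -2.12 and -1.89 tracked those of UGT72E1 on every array, in the order no gold 1 to 3 and gold 1 to 3. The other 4 lay at distances of 0.466, 0.785, 0.823 and 0.956. AT4G25790 and AT2G19970 encode CAP proteins, a secreted family related to PR-1, and AT3G58060 encodes MTP8, a manganese transporter. These likenesses rest on 6 arrays that share the difference between groups and the row centring, and are a description.

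**Figure D4:**
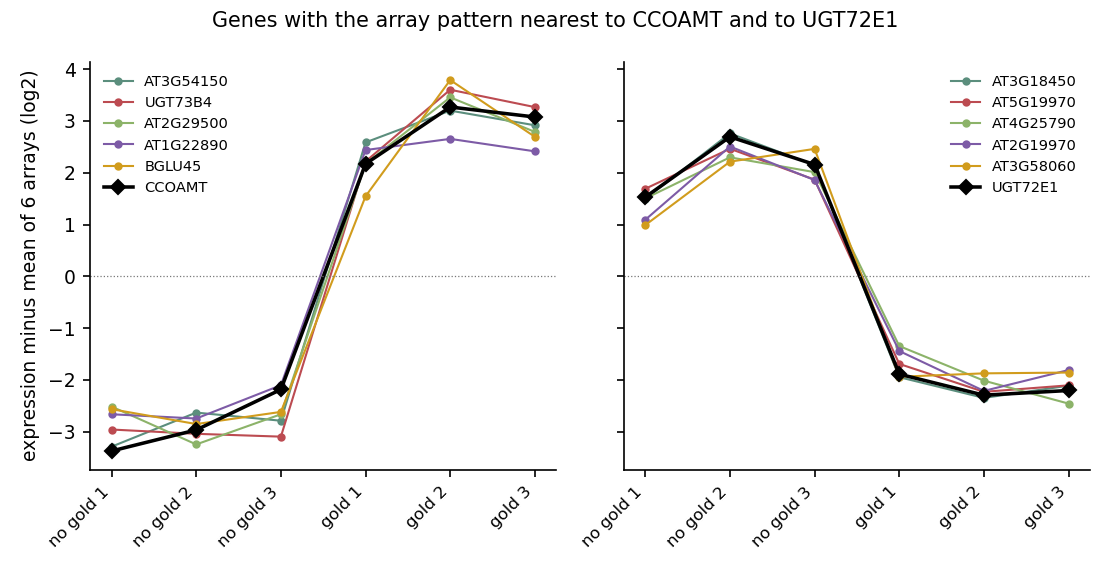
Log2 expression minus the mean of the 6 arrays for CCOAMT (left) and UGT72E1 (right), black, with the 5 genes nearest to each in colour. The line of AT3G18450 lies almost on that of UGT72E1, at a distance of 0.143, while the nearest to CCOAMT, AT3G54150, lies at 0.827.

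None of the 5 measured chromosomal neighbours passed in the direction of the gene beside it. Of all probe sets, 9.32% were called higher and 10.9% lower, so 5 genes are too few to read this as a result. Of the 3 protein-coding genes on each side of CCOAMT, AT1G67950 stood at -0.68 ± 0.221 (limma adjusted p = 0.0673) and HPR, a photorespiratory hydroxypyruvate reductase gene, fell by 1.60 ± 0.204 (limma adjusted p = 0.00136). The other 4 had no probe set named for them alone. AT1G67950 passed without gold replicate 1 (limma adjusted p = 0.0242). Around UGT72E1, AT3G50730 next to it stood at -0.04 ± 0.23, AT3G50720 at -0.02 ± 0.167, and the calmodulin-like gene CML41, 3 genes away, rose by 1.95 ± 0.22 (limma adjusted p = 0.000736).

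Cell type markers were thinly covered. All 3 measured root hair genes of 7 listed fell, where 10.9% of all probe sets were called lower, with changes of -2.53 ± 0.361 for the peroxidase AT1G30870, -2.36 ± 0.383 for EXPA18 and -2.34 ± 0.354 for EXPA7, and limma adjusted p from 0.00237 to 0.00428. Their mean on the centred scale was from 0.57 to 1.44 on the no gold arrays and from -1.75 to -0.57 on the gold arrays. The ordinary test ended all 3 calls.

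Of the shoot list, RCA fell by 1.49 ± 0.226 (limma adjusted p = 0.00305) and PRK stood at -1.48 ± 0.492 (limma adjusted p = 0.0737), out of 6 listed genes. The endodermal gene GSO1 (0.39 ± 0.153), the phloem gene SWEET11 (-0.81 ± 0.27) and CR4 of the root cap list (-0.54 ± 0.172) did not pass, and each was the only measured member of its list. SWEET11 passed when no gold replicate 3 or gold replicate 2 was left out (limma adjusted p = 0.0381 and 0.0423). None of the 5 listed xylem markers had a probe set named for it alone. The part of these cell types in the changes of CCOAMT and UGT72E1 was not tested.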

How the data were processed

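RNA from whole roots was hybridised to ATH1 arrays, per the labels. The 22810 probe sets in the deposited data carry log2 values, which the authors had centred per probe set on the median of the 6 arrays (within 1e-06). Probe summarisation and array scaling were not given in the sources used here. A filter on dim probe sets needs levels and was not run. Leaving aside 64 controls, limma 3.58.1 under R 4.3.3 was applied to 22746 probe sets (lmFit, eBayes, two-sided, Benjamini-Hochberg adjustment, threshold 0.05); tables and figures used Python 3.11.15. The platform annotation named 13513 probe sets for 1 gene and 503 for several, and left 8730 unnamed here; 13436 matched the TAIR10.1 gene table, used for names and gene order alone. Where a gene had several probe sets, the one without a shared-sequence suffix, then the lowest ID, was taken. With 3 jars per group the smallest exact permutation p is 0.1, so calls depend on the variance that limma pools over probe sets, and precision is limited by having 6 arrays.

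CCOAMT, UGT72E1 and the lists were chosen with earlier results of these data known. One group of listed genes is not reported here. Genes were named by rule: every measured CCoAOMT and UGT72 gene, up to 6 called members per list or the one with the lowest p, the 4 largest called rises and falls of UGT genes, and the 5 nearest patterns. The other values given, and the neighbours, were chosen after the files were seen. Alternatives were array median centring, quantile normalization, each array left out, the replicate number as a block, treat with a minimum of 1.5-fold, an equal-variance test with no pooling (the ordinary test), robust empirical Bayes and, for the lists, the average over the probe sets of each gene. The fit was tested on simulated data.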

Additional observations from a re-analysis of the deposited data

How the results depend on the processing

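CCOAMT and UGT72E1 kept their directions in all settings tried for them; quantile normalization gave 5.02 and -5.05, and leaving out 1 array gave 5.41 to 6.01 and -4.55 to -3.97 on the log2 scale. Over all probe sets, the ordinary test gave 922 higher and 1015 lower and treat 968 and 757; leaving out 1 array gave 1262 to 2432 higher and 1258 to 2717 lower. Of the 32 pathway genes, the ordinary test called 5 higher and 2 lower and treat 4 and 2; 3 were lower with array median centring and 3 with the replicate block. Leaving out 1 array gave 6 to 11 higher and 3 to 5 lower. Of the 46 UGT genes, the ordinary test called 6 higher and 1 lower, treat 7 and 1, and 2 were lower with the replicate block; leaving out 1 array gave 7 to 11 higher and 2 to 4 lower. Fewer arrays were fitted where 1 was left out, yet without gold replicate 1 the counts over all probe sets rose from 2121 and 2480 to 2432 and 2649. Treat asks for a minimum change, and the cause of the other shifts was not tested. Of 35 named genes called, 20 kept their call in all 11 settings and none reversed. Quantile normalization ended 1 call, array median centring 2 and the replicate block 3 (AT1G24735, UGT78D2 and UGT84A4). Deviations from the group mean correlated at -0.11, -0.25 and 0.28 between arrays of the same number, so the numbers were not taken as pairs; the block gave 3949 changed probe sets, 3739 of them shared with the 4601. No gene of the lists had more than 1 probe set, so averaging probe sets changed nothing. Robust empirical Bayes gave 2101 higher and 2444 lower. Signal over background could not be judged from centred values.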
